A study of Mus musculus with 15 samples.

Results

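The genes described here make the cornified envelope, and 47 of the 18929 genes in the table belong to them. They were chosen by name: every symbol beginning with Lce or Sprr, together with Lor, Ivl, Flg, Flg2, Hrnr, Rptn, Crnn, Tgm1, Tgm3, Tgm5, Cdsn, Casp14 and Asprv1. By role these are 14 Lce1, 6 Lce3 and 1 Lce6 gene, 2 Sprr1 genes, 10 Sprr2 genes, Sprr4, loricrin and involucrin, 5 S100-fused proteins of the filaggrin family, 3 transglutaminases, 2 proteases and corneodesmosin.

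RNA was sequenced from the dorsal skin of wild-type male balb/c mice aged 4 to 6 weeks, in 5 groups of 3 samples. Full-thickness round wounds of 10 mm or 15 mm were filled either with acellular Matrigel beads (groups acellular 10 mm and acellular 15 mm) or with Matrigel beads carrying human umbilical cord mesenchymal stem cells at high density, with acellular beads printed in the gaps (groups HDB 10 mm and HDB 15 mm), and the last group was normal skin. Wounded skin of all 4 groups therefore received Matrigel, and normal skin received neither a wound nor beads. For the time of harvest the methods name both 4 weeks of implantation and day 21. Reads were counted on mouse genes, and how many reads of the human cells were counted there was not measured. Nothing in the labels says whether the 3 samples of a group came from separate mice, and p-values therefore measure the spread between these samples. Total counts per sample lay between 15840542 and 18404177.

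Keratinocytes that leave the basal layer end as dead, flattened corneocytes, in which the plasma membrane is replaced by a shell of cross-linked protein. Involucrin lays the first scaffold, loricrin and the small proline-rich (Sprr) and late cornified envelope (Lce) proteins fill it, transglutaminases tie them together, and filaggrin compacts the keratins inside. Most of these genes lie side by side in the epidermal differentiation complex, and Sprr genes and Lce3 genes are known for rising when the epidermis is injured.

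Of the 47 genes, 41 lay on chromosome 3 between positions 92080271 and 93399442 (GRCm38.p6), a stretch of 1.319 Mb with Lor at one end and Rptn at the other. The other 6 were Tgm3 and Tgm5 on chromosome 2, Asprv1 on chromosome 6, Casp14 on chromosome 10, Tgm1 on chromosome 14 and Cdsn on chromosome 17. Because members that moved apart in the results below share this stretch, the 120 bases before the start site are shown for 6 of them (RefSeq, GRCm38.p6, 5′ to 3′ along the gene). Lor and Flg2 were lower in healed skin, Flg and Rptn were high in 2 samples of the HDB 10 mm group, Crnn was high in other samples, and Sprr1a was higher in every healed sample. Capitals mark TGANTCA (an AP-1-like motif with any base at N, the same on both strands) and TATAAA.

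Lor, chr3:92083143-92083262, minus strand: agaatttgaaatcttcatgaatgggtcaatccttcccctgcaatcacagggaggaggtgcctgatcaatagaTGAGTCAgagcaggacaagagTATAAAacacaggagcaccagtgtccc
Flg, chr3:93273426-93273545, plus strand: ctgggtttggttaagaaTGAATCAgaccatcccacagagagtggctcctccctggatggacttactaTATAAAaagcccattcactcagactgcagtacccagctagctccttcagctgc
Flg2, chr3:93197153-93197272, plus strand: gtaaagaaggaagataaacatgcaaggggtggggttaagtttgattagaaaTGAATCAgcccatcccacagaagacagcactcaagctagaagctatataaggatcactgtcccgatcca
Crnn, chr3:93144669-93144788, plus strand: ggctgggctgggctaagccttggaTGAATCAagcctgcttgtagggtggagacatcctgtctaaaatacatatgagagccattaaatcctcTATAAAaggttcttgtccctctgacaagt
Rptn, chr3:93393579-93393698, plus strand: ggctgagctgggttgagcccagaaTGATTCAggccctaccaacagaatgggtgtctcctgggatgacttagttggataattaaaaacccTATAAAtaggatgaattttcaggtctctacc
Sprr1a, chr3:92485882-92486001, minus strand: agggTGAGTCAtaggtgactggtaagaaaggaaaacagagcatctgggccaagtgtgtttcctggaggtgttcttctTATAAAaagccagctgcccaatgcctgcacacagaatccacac

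Crnn, Flg and Flg2 each held TGAATCA, from 96, 103 and 69 bases before the start, and Rptn held TGATTCA from 96 bases before it. Lor and Sprr1a held TGAGTCA, from 48 and 116 bases before the start. Flg and Flg2 also shared the 12 bases ccatcccacaga, from positions -94 and -60. Of the 47 members, 46 had an entry in the promoter table, and within 250 bases before the start on either strand 15 of them (32.6%) held TGANTCA, against 6.75% of all 32851 promoters. TATAAA was found in 20 of the 46 (43.5%), against 12.4% of all promoters. Sprr2b, Sprr2d, Sprr2e, Sprr2f, Sprr2h, Sprr2i and Sprr2k held TGAGTCA from positions -198 to -193 and TATAAA from -29. These neighbours of 1 family are not separate observations. Members were counted by gene and all promoters by entry. TTGCNNAA, a C/EBP-like motif, was found in 7 of the 46 (15.2%, against 9.56%), GGGNGTGG, a KLF-like motif, in 2 (4.35%, against 15.9%), and AACCNGTT, a grainyhead-like motif, in 1 (2.17%, against 1.79%). No printed match overlapped another, and these matches describe letters in a window and not binding. All 6 printed stretches held TGANTCA, although their genes moved in different directions against normal skin. Lce1m, Cdsn, Tgm5, Casp14, Sprr2a1 and Sprr2a3, also described below, held no TGANTCA within the 250 bases.

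Several members are near copies. In windows of 100 bases, 92.5% of the Sprr2a1 transcript and 92.8% of the Sprr2a2 transcript were found in other members, chiefly each other, and 36.2% of Sprr2a3 was found in Sprr2a1. Counts of these 3 genes can be split between them by the counting program, so their sum is used below. Lce3c, Lce3d, Lce3e and Lce3f shared 24.1%, 28.3%, 36.4% and 43.0% of their windows with other members, so values of single Lce3 genes are uncertain in the same way. Lce1 transcripts shared under 5% of their windows with other members.

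Levels are given as CPM, the count scaled to library size after TMM normalization. Per kb of the longest transcript, the highest mean over the 15 samples belonged to Lor at 107 CPM per kb, followed by Asprv1 at 99.1 and Lce1m at 96.8. In normal skin alone the order was Lor at 250.3, Lce1m at 183 and Asprv1 at 139 CPM per kb, while Sprr1a stood at 10.2. The filter on low counts kept 34 of the 47 members, and 13 were not tested, namely all 6 Lce3 genes and Sprr2a2, Sprr2b, Sprr2d, Sprr2e, Sprr2f, Sprr2i and Sprr2k. In the plot of all 47 genes by sample, samples of 1 group could differ as much as groups did.

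**Figure D1:**
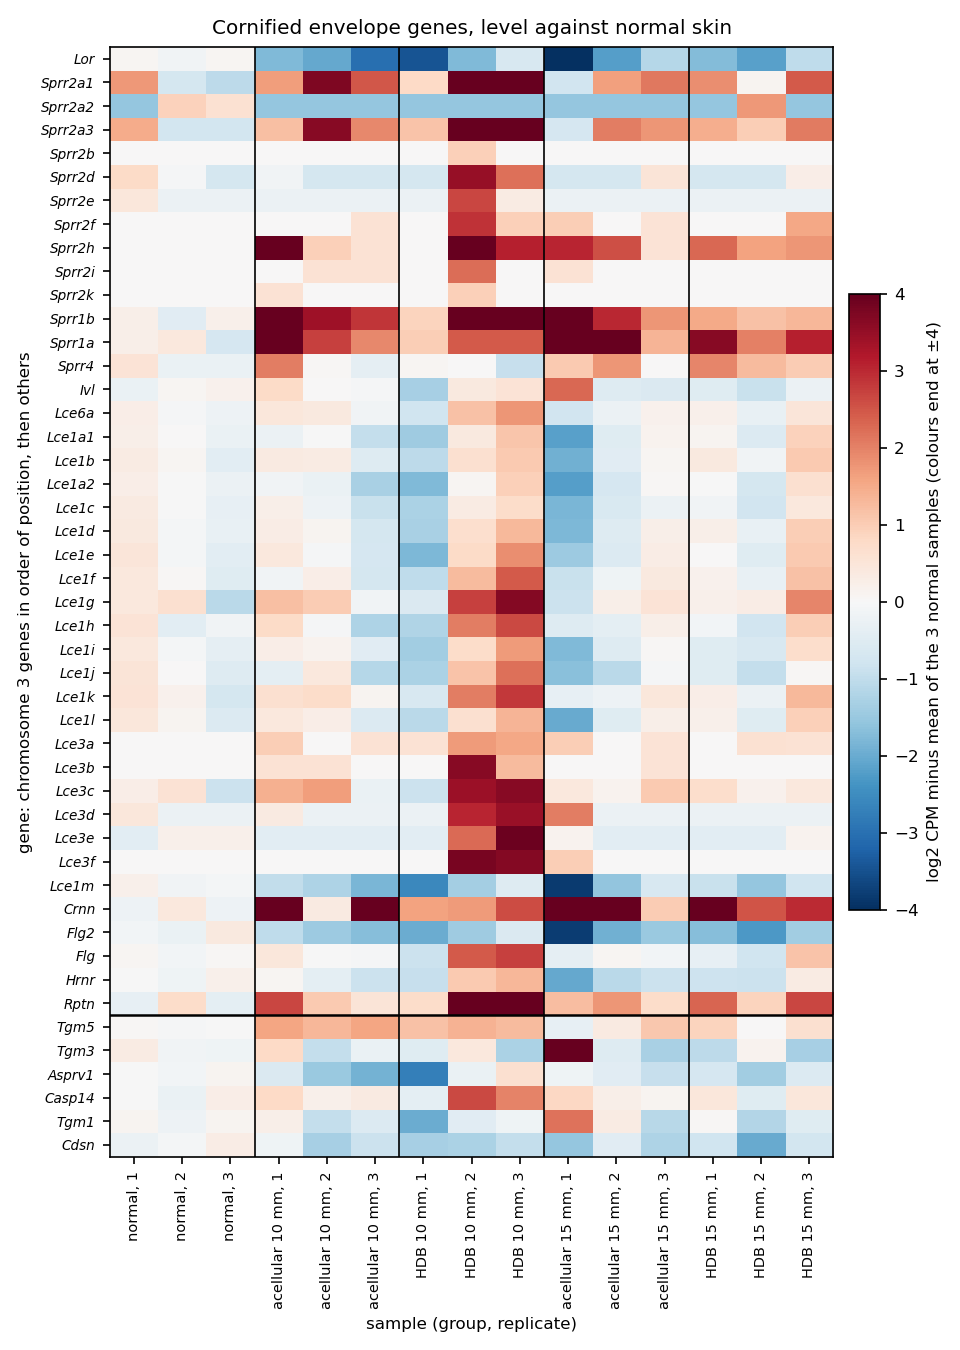
Each row is a gene, in order of position on chromosome 3 and then the 6 genes elsewhere, and each column is a sample. Colour gives log2 CPM minus the mean of the 3 normal samples, with colours ending at ±4. Most Lce, Sprr2a1, Flg and Rptn rows are red in HDB 10 mm replicates 2 and 3 and blue or pale in replicate 1, Lor, Lce1m and Flg2 are blue in every healed sample.

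The labelled tissue was skin, and its keratinocyte markers were present in every sample. The 11 suprabasal keratin and desmosome genes of the spinous and granular layers summed to 5365 to 6617 CPM in normal skin and to 3058 to 6246 CPM in healed skin. Bulk RNA cannot tell fewer cells of a type from less RNA per cell. Samples also differed in what else they held. A list of hair shaft and inner root sheath genes (21 of its 23 genes were in the table) summed to 20.0 to 23.4 CPM in normal skin, where 8 of the 21 were at 0 in all 3 samples. It summed to 47.2 to 2136 CPM in the acellular 10 mm group, 58.1 to 27450 CPM in the acellular 15 mm group, 60.4 to 69.7 CPM in the HDB 10 mm group and 196 to 1019 CPM in the HDB 15 mm group. The highest sum, in acellular 15 mm replicate 1, was also the sample with the lowest Lor, Flg2 and Lce1m of all 15. Against normal skin, the acellular 10 mm group had 6 of 6 adipocyte and 6 of 6 endothelial genes called lower (10.6% of all genes were). Also called lower there were 4 of 6 fibroblast and 5 of 7 macrophage genes. Called higher were 5 of 6 proliferation and 6 of 9 sebaceous genes (9.77% of all genes). In the acellular 15 mm group 6 endothelial, 1 fibroblast and 4 macrophage genes were called lower (12.6% of all genes). There 5 proliferation genes were called higher (17.6%). In the HDB 10 mm group 4 endothelial and 3 macrophage genes were called lower (6.23%) and 4 proliferation and 5 sebaceous genes higher (6.1%). In the HDB 15 mm group 1 proliferation gene was called higher (2.67%). Hair genes called higher numbered 9 in the acellular 10 mm group and 21 in the acellular 15 mm group. With HDB they numbered 0 at 10 mm and 1 at 15 mm. One further call, of 1 muscle gene, was lower in the acellular 15 mm group. The most abundant gene of each list was Tchh (hair), Fabp4 (adipocyte), Pecam1 (endothelial), Col3a1 (fibroblast), Lyz2 (macrophage), Mki67 (proliferation), Scd3 (sebaceous) and Acta1 (muscle). Between HDB and acellular beads at 10 mm, all 6 fibroblast genes were higher with HDB without overlap of samples, with 0 called. Of all genes 11% did not overlap there. Also without overlap were 3 adipocyte genes, higher with HDB, and 2 hair and 2 proliferation genes, lower with HDB, with 0 called. The part of these cells in the members' values was not tested. Skeletal muscle genes (8 in the list) summed to 50362 to 61244 CPM in normal skin and to 644 to 36677 CPM in healed skin. The main results that rest on acellular 15 mm replicate 1, or on HDB 10 mm replicate 1, are therefore given with and without it.

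Against normal skin, edgeR's quasi-likelihood test (Benjamini-Hochberg adjusted p under 0.05 over all 15369 genes tested) called few members. In the acellular 10 mm group 2 of the 34 tested members were higher (Sprr1a and Tgm5), where 9.77% of all genes were, and 0 were lower, where 10.6% of all genes were. In the acellular 15 mm group 3 were higher (Sprr1a, Sprr1b and Crnn; 17.6% of all genes were higher) and 2 lower (Lor and Flg2; 12.6% of all genes were lower). In the HDB 10 mm group 6 were higher (Sprr1b, Rptn, Sprr2a1, Sprr2a3, Casp14 and Tgm5; 6.1% of all genes were higher) and 0 lower (6.23% of all genes). In the HDB 15 mm group 0 were called, with 5.18% of all genes called (2.67% higher and 2.51% lower), while 5 of the 34 and 4133 of all genes had an unadjusted p under 0.05, and DESeq2 called 4 members and 18.6% of all genes. Both member counts lay below the share of all genes. The members' share was above the background only for rises in the HDB 10 mm group, and it rested on single samples. With HDB 10 mm replicate 2 or 3 left out 0 members were called (1.15% and 1.78% of all genes), and with normal replicate 1, 2 or 3 left out 0, 1 and 0 were called (2.92%, 3.86% and 0.501% of all genes). With HDB 10 mm replicate 1 left out 18 were higher and 0 lower, where 17.5% of all genes were called in either direction, but 39 members were then tested, the added ones being low members that entered through the samples where they were high, so this count is a description only.

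The median log2 fold change over the tested members was 0.04 in the acellular 10 mm group, -0.21 in the acellular 15 mm group, 0.82 in the HDB 10 mm group and 0.26 in the HDB 15 mm group. These medians moved with single samples. In the HDB 10 mm group the median was 0.18 without HDB 10 mm replicate 3 and 1.51 without replicate 1 (39 members tested), and in the HDB 15 mm group it was -0.19 without HDB 15 mm replicate 3 and -0.03 with the transcript length trend removed. With single samples left out, the acellular medians lay at -0.19 to 0.24 (10 mm) and -0.42 to 0.09 (15 mm). Medians over all genes tested lay between 0.02 and 0.06. With Sprr2h, at 0 counts in all normal samples, placed at its lower bound, these medians did not move. Samples of healed and normal skin did not overlap for 4 members higher and 4 lower in each of the 10 mm groups, for 4 higher and 6 lower in the acellular 15 mm group, and for 6 higher and 5 lower in the HDB 15 mm group. Of all genes, 56.3% (acellular 10 mm), 49.1% (HDB 10 mm), 44% (acellular 15 mm) and 46.4% (HDB 15 mm) did not overlap. Members near 0 in normal skin, such as Sprr1b, Crnn and Sprr2h, passed the filter through healed samples only, so counts over the tested members are given as a description.

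**Figure D2:**
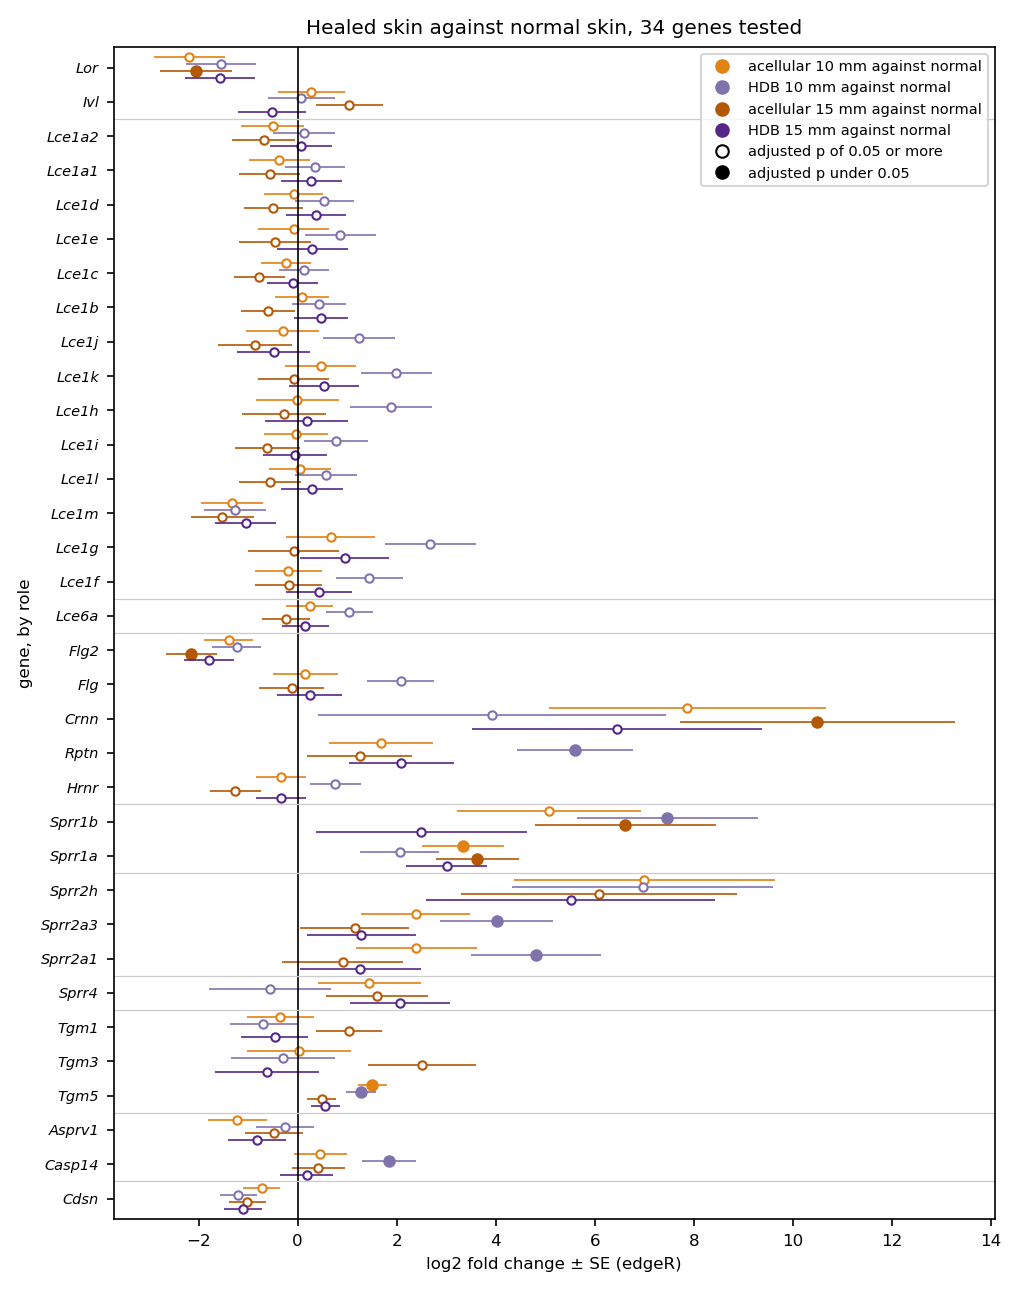
The x axis gives the log2 fold change against normal skin with its standard error for the 34 tested genes, ordered by role, with 1 colour per healed group. Filled points have an adjusted p under 0.05. Lor, Lce1m, Flg2 and Cdsn lie left of 0 in all 4 groups and Sprr1a, Sprr1b, Rptn, Tgm5 and Crnn right of it, and bars are widest for genes near 0 counts in normal skin.

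Loricrin, the most abundant envelope protein of mouse epidermis, was lower in every healed sample. Lor stood at 467, 404 and 466 CPM in the normal samples, 130.5, 108 and 55.2 CPM in the acellular 10 mm group, and 40.1, 130.7 and 286 CPM in the HDB 10 mm group. In the 15 mm wounds it was 25.4, 95.6 and 201 CPM with acellular beads and 135, 98.1 and 217 CPM with HDB. No healed sample reached the lowest normal one. The log2 fold change against normal skin was -2.18 (SE 0.72, adjusted p = 0.05 after rounding, just over the threshold) in the acellular 10 mm group and -2.05 (SE 0.72, adjusted p = 0.0475) in the acellular 15 mm group, and only the latter passed the threshold. It was -1.55 (adjusted p = 0.155) in the HDB 10 mm group and -1.57 (adjusted p = 0.178) in the HDB 15 mm group. The call in the acellular 15 mm group was lost when any sample but acellular 15 mm replicate 3 was left out, with log2 fold changes from -1.59 (without acellular 15 mm replicate 1, adjusted p = 0.107) to -2.88 (without replicate 3). It was also lost with no filter (adjusted p = 0.0524), with the transcript length trend removed (0.0599), with scaling to the suprabasal list (0.064) and in a fit of the compared groups alone (0.102).

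Involucrin, the scaffold protein, behaved otherwise. Ivl stood at 24.7, 30.9 and 33.5 CPM in normal skin, and 11 of the 12 healed samples lay between 11.6 and 49.7 CPM. The exception was acellular 15 mm replicate 1 at 144 CPM, the sample with the highest hair gene sum. Its log2 fold change against normal skin in the acellular 15 mm group, 1.05 (SE 0.68, adjusted p = 0.253), was -0.56 without that sample. For Ivl it was 0.28 (SE 0.67, adjusted p = 0.783) in the acellular 10 mm group, 0.08 (SE 0.67, adjusted p = 0.954) in the HDB 10 mm group and -0.52 (SE 0.68, adjusted p = 0.661) in the HDB 15 mm group. The part of hair tissue in this value was not tested.

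The Lce1 genes, which encode glycine- and cysteine-rich envelope proteins made late in differentiation, varied together from sample to sample. Their summed level was 438, 349 and 311 CPM in the normal samples and ranged from 65.1 CPM (acellular 15 mm replicate 1) to 607 CPM (HDB 10 mm replicate 3) in healed skin. None of the 14 was called in any comparison with normal skin. Lce1m, the highest of them, was 184, 145 and 151 CPM in normal skin and 11.1 to 111 CPM in all 12 healed samples, so these did not overlap. Its log2 fold changes were -1.32 (adjusted p = 0.14), -1.52 (0.083), -1.26 (0.186) and -1.05 (0.296) in the acellular 10 mm, acellular 15 mm, HDB 10 mm and HDB 15 mm groups. Without acellular 15 mm replicate 1 the second of these was -1.04, and without HDB 10 mm replicate 1 the third was -0.87. Lce1m was the only Lce1 gene whose healed samples did not overlap with normal skin in any group. Lce1a1, the next in level, was 52.9 ± 8.68 CPM (SD, n = 3) in normal skin, 41.0 ± 12.6 and 35.8 ± 23.3 in the acellular 10 mm and 15 mm groups, and 67.4 ± 47.1 and 64.1 ± 32.3 in the HDB 10 mm and 15 mm groups. In position Lce1m lies beyond the Lce3 genes and apart from the other 13.

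Lce3 genes, which are near silent in resting skin and rise in wounded and psoriatic epidermis, were seen in 2 samples. All 6 summed to 6.94 CPM in HDB 10 mm replicate 2 and 7.997 CPM in replicate 3, and to at most 0.907 CPM in the other 13 samples. Lce3c, the highest, was 2.15 and 2.55 CPM in those samples and 0 in HDB 10 mm replicate 1. Lce3f was at 0 counts in all normal samples and at 53 counts over the HDB 10 mm group, at least 14.6-fold higher than the limit of 3 counts over the normal group (10.5-fold without replicate 2 and 11.6-fold without replicate 3, counting error only, and with reads that can be split among Lce3 copies). These 6 genes did not pass the filter and were not tested with all samples present. Lce6a followed the same 2 samples, at 27.8 and 41.5 CPM, with 6.93 CPM in HDB 10 mm replicate 1 and 10.7 to 14.5 CPM in normal skin. Its log2 fold change in that group was 1.05 (SE 0.48, adjusted p = 0.155), and 1.51 (adjusted p = 0.0134) without replicate 1. In the acellular 10 mm, acellular 15 mm and HDB 15 mm groups Lce6a was at 0.25, -0.24 and 0.16 (SE 0.48 each, adjusted p = 0.725, 0.73 and 0.867).

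**Figure D3:**
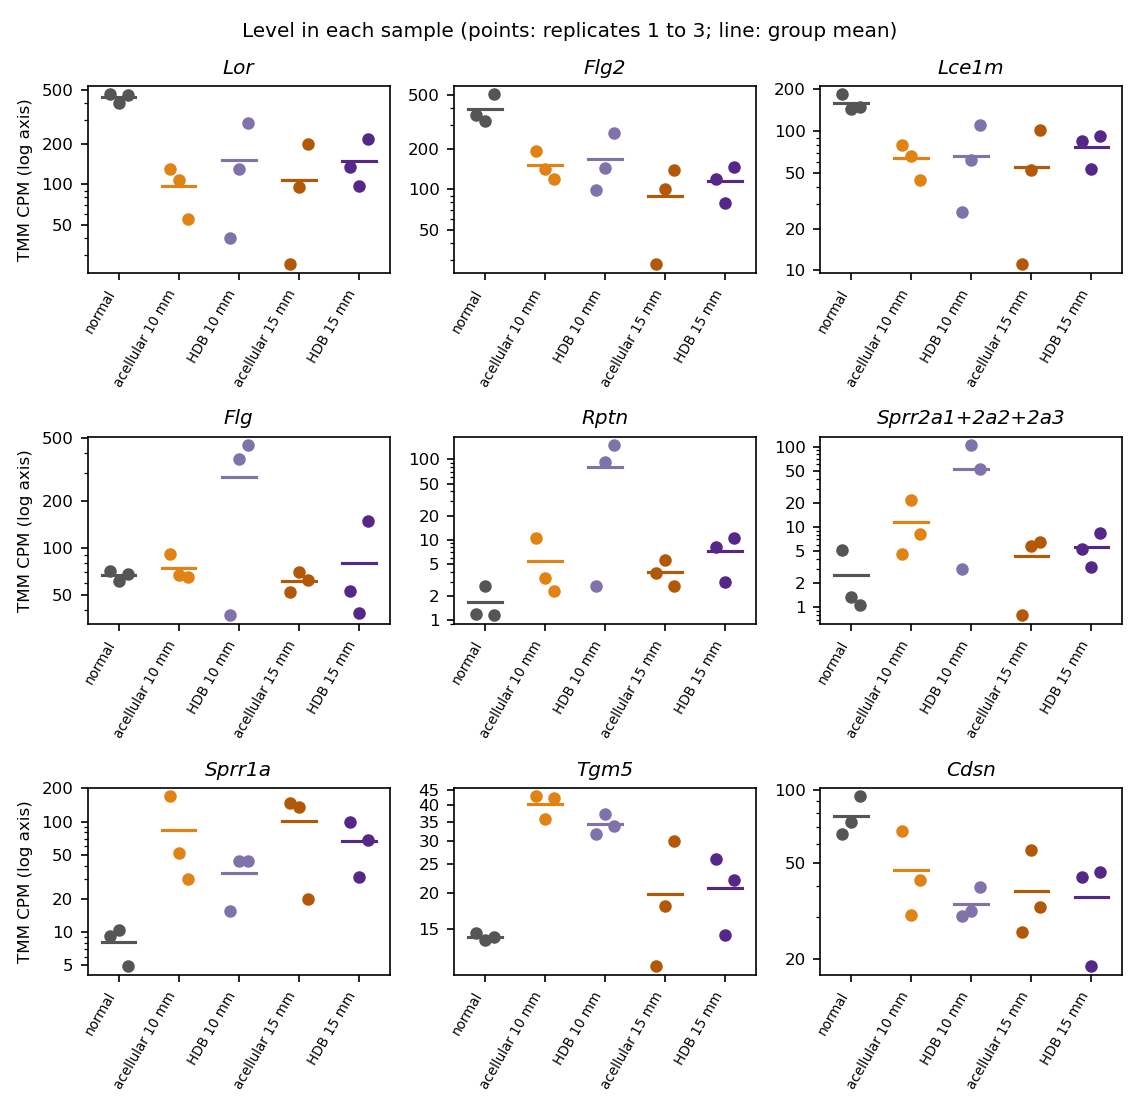
Each panel plots 1 gene, or the sum of 3 near-identical genes, with a point per sample and a line at the group mean, as TMM CPM on a log axis. Lor, Flg2 and Lce1m of all 12 healed samples lie below the 3 normal samples and Sprr1a above them, while Flg, Rptn and the Sprr2a sum are high in HDB 10 mm replicates 2 and 3 (for Flg 365 and 448 CPM) and not in replicate 1 (37.2 CPM).

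The S100-fused proteins split into 3 patterns. Filaggrin 2 was lower in every healed sample, as loricrin was. Flg2 stood at 357, 323 and 507 CPM in normal skin and 27.8 to 262 CPM in healed skin, without overlap. The log2 fold change was -2.14 (SE 0.51, adjusted p = 0.011) in the acellular 15 mm group, a call kept whichever sample was left out (-1.72 to -2.61), and it was lost only in a fit of the compared groups alone (adjusted p = 0.0706). In the acellular 10 mm, HDB 10 mm and HDB 15 mm groups it was -1.39 (adjusted p = 0.0634), -1.23 (0.113) and -1.78 (0.0572).

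Filaggrin and repetin were marked by 2 samples of the HDB 10 mm group. Flg was 71.2, 61.5 and 68.6 CPM in normal skin, and 37.2, 365 and 448 CPM in HDB 10 mm replicates 1, 2 and 3. In the other healed groups it lay between 38.4 and 148 CPM. The log2 fold change in the HDB 10 mm group was 2.08 (SE 0.68, adjusted p = 0.0624), or 2.61 (adjusted p = 0.00779) without HDB 10 mm replicate 1, and between -0.12 and 0.25 in the other 3 groups. Scaling to the suprabasal list, chosen after seeing the data, gave Flg 2.16 (adjusted p = 0.0415) in the HDB 10 mm group. Rptn, a granular layer protein that binds the envelope, was 1.19, 2.68 and 1.14 CPM in normal skin and 2.66, 92.2 and 149 CPM in the HDB 10 mm group. The fold change of Rptn there was 5.60 on the log2 scale (SE 1.17, adjusted p = 0.0169), although replicate 1 lay within the normal range. Without HDB 10 mm replicate 2 its adjusted p was 0.0561, without replicate 3 it was 0.0565, without normal replicates 1 and 3 it was 0.0584 and 0.0777, and leaving out HDB 10 mm replicate 1 gave a log2 fold change of 6.19. Hornerin went the same way in those samples (54.2, 214 and 263 CPM, with 91.8 to 118 CPM in normal skin) and was not called.

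Cornulin, an envelope protein of stratified epithelia, was high in other samples. Crnn had 1 count over the 3 normal samples, and its level was 119, 11.0 and 0.159 CPM in the acellular 15 mm group, 18.3, 0.0562 and 2.69 CPM in the acellular 10 mm group, 6.23, 0.667 and 0.96 CPM in the HDB 15 mm group and 0.296 to 0.722 CPM in the HDB 10 mm group. It was called in the acellular 15 mm group (adjusted p = 0.0164; without acellular 15 mm replicate 1 adjusted p = 0.0494, and without normal replicates 1, 2 or 3 between 0.0587 and 0.064). The ratio of its 2287 counts there to the 1 count in normal skin was 1880.4 per read sequenced, with a 95% exact interval of 337 to 74302 that covers counting error only. Replicate 1 held 2096 of these counts, and without it the ratio was 234 (41.5 to 9295). In a fit of the compared groups alone Crnn did not pass the filter on low counts. The call of Crnn is therefore given as a description only. In the acellular 10 mm, acellular 15 mm and HDB 15 mm groups the order of the samples by Crnn was their order by the summed hair list, and in the HDB 10 mm group, where Crnn was low and the list stood at 60.4, 69.7 and 69.6 CPM, it was not. In the acellular 15 mm group the list summed to 27450, 2433 and 58.1 CPM in replicates 1, 2 and 3. Tchh, the trichohyalin of the inner root sheath and the most abundant gene of that list, was 5034, 256 and 10.8 CPM in the same samples. All 21 hair genes were higher in that group than in normal skin, and their part in the Crnn result was not tested.

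Ratios within a sample do not depend on library scaling, and 4 of them, chosen after the levels were seen, separated normal from healed skin. Lor was 6.56, 6.56 and 6.78 times Flg in the normal samples and 0.358 to 3.20 times Flg in the 12 healed samples. Flg2 was 5.01, 5.25 and 7.39 times Flg in normal skin and 0.395 to 2.66 times in healed skin. The ratio of Lor to Sprr1a was 38.4 to 95.1 in normal skin and 0.171 to 10.0 in healed skin. Lce1m made up 42.0%, 41.5% and 48.5% of all Lce1 CPM in normal skin and 17.0% to 32.2% in healed skin. All 4 therefore lay outside the normal range in every healed sample of every group, and no test is given because they were chosen from these values. The ratio of Lor to Sprr1a had to separate, because Lor was lower and Sprr1a higher in every healed sample.

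**Figure D4:**
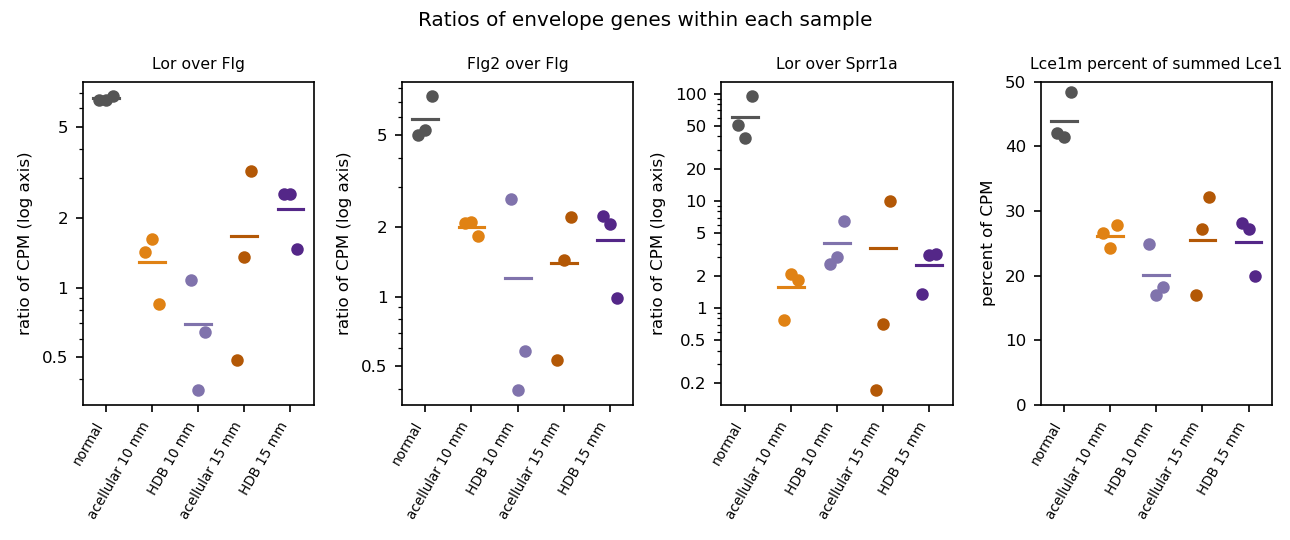
The panels give the ratio of Lor to Flg, Flg2 to Flg and Lor to Sprr1a (log axes) and Lce1m as a percent of the summed Lce1 CPM (linear axis from 0), with a point per sample and a line at the group mean. In each panel the 3 normal samples lie above all 12 healed samples.

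Among the Sprr genes, which encode short proline-rich cross-linkers, Sprr1a, Sprr1b and the near copies Sprr2a1 and Sprr2a3 were called higher in some group. Tested were 2 Sprr1 genes, 3 Sprr2 genes and Sprr4, and by group 2.67% to 17.6% of all genes were called higher. Sprr1b passed the filter through healed samples only. Sprr1a was 9.20, 10.5 and 4.90 CPM in normal skin and higher in every healed sample, at 169, 52.3 and 29.9 CPM in the acellular 10 mm group, 149, 136 and 20.1 CPM in the acellular 15 mm group, 15.5, 43.6 and 43.7 CPM in the HDB 10 mm group and 99.0, 31.6 and 68.4 CPM in the HDB 15 mm group. The log2 fold change was 3.35 (SE 0.83, adjusted p = 0.0183) in the acellular 10 mm group and 3.63 (SE 0.84, adjusted p = 0.0101) in the acellular 15 mm group. With HDB it was 2.06 at 10 mm (adjusted p = 0.101) and 3.01 at 15 mm (adjusted p = 0.0515). The acellular 10 mm call was lost without acellular 10 mm replicate 1 (2.33, adjusted p = 0.083) or without any 1 of the normal samples (adjusted p from 0.0508 to 0.0758), and the acellular 15 mm call held whichever sample was left out.

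Sprr1b had 2 counts over the 3 normal samples. It reached 11.7 and 15.9 CPM in HDB 10 mm replicates 2 and 3 and 13.9 CPM in acellular 15 mm replicate 1, and was at most 2.68 CPM elsewhere. It was called in the HDB 10 mm group (adjusted p = 0.0262) and the acellular 15 mm group (adjusted p = 0.0193), with count ratios to normal skin of 209 (95% exact interval 57.6 to 1733, counting error only) and 113 (30.9 to 935). Acellular 15 mm replicate 1 held 246 of the 274 counts there, and without it the ratio was 17.2 (4.33 to 148.6), while in the HDB 10 mm group the ratio was 137 (37.5 to 1140.3) without replicate 3 and 304 (83.7 to 2517) without replicate 1. In fits of the compared groups alone Sprr1b did not pass the filter on low counts in either group. Its calls are therefore given as a description only. Leaving out acellular 15 mm replicate 1 gave an adjusted p of 0.106, leaving out any 1 normal sample gave 0.0589 to 0.066 in that group, and in the HDB 10 mm group leaving out any sample but replicate 1 gave adjusted p from 0.0764 to 0.0969.

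The sum of Sprr2a1, Sprr2a2 and Sprr2a3 was 5.13, 1.34 and 1.07 CPM in normal skin and 3.02, 103 and 53.1 CPM in the HDB 10 mm group. In the other healed groups it ranged from 0.794 to 21.9 CPM. Taken singly, Sprr2a1 (log2 fold change 4.82, SE 1.32, adjusted p = 0.0362) and Sprr2a3 (4.02, adjusted p = 0.0412) were called in the HDB 10 mm group, but their samples overlapped with normal skin through replicate 1, and both calls were lost when any sample but that one was left out (adjusted p from 0.0574 to 0.153) and in a fit of the compared groups alone (0.0576 and 0.0566). A replicate block gave adjusted p of 0.0988 and 0.102. Sprr2a1 was at 2.40 (SE 1.22, adjusted p = 0.166) in the acellular 10 mm group, 0.91 (SE 1.22, adjusted p = 0.593) in the acellular 15 mm group and 1.27 (SE 1.21, adjusted p = 0.531) in the HDB 15 mm group. Sprr2h was at 0 counts in normal skin, at 0, 34 and 16 counts in the HDB 10 mm samples and at 46, 2 and 1 counts in the acellular 10 mm samples. In the HDB 10 mm group this was at least 13.7-fold higher than 3 counts over the normal group, and at least 6.73-fold higher without replicate 2, while in the acellular 10 mm group replicate 1 alone carried it and no bound remained without it. Sprr2d was 2.04 and 0.777 CPM in HDB 10 mm replicates 2 and 3 and at most 0.211 CPM in the other samples, and Sprr2b, Sprr2e, Sprr2f, Sprr2i and Sprr2k reached at most 0.753 CPM. Sprr4 was under 1 CPM throughout, and its log2 fold changes were 1.45 (SE 1.04, adjusted p = 0.319) and 1.60 (SE 1.03, adjusted p = 0.25) in the acellular 10 mm and 15 mm groups and -0.56 (SE 1.24, adjusted p = 0.789) and 2.07 (SE 1.01, adjusted p = 0.207) in the HDB 10 mm and 15 mm groups.

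The transglutaminases, which form the cross-links, each followed their own course. Tgm5 was steady in normal skin, at 14.5, 13.8 and 14.1 CPM, and rose to 42.8, 35.8 and 42.3 CPM in the acellular 10 mm group and 31.7, 37.3 and 34 CPM in the HDB 10 mm group. Both 10 mm groups thus stood clear of normal skin. Sebaceous gland genes (9 in the list) moved with Tgm5: their sum was 4294 ± 419 and 4282 ± 1371 CPM (SD, n = 3) in the acellular and HDB 10 mm groups, 2138 ± 807 and 2201 ± 175 at 15 mm and 2118 ± 528 in normal skin. Their part in the Tgm5 result was not tested. The log2 fold change was 1.51 (SE 0.30, adjusted p = 0.00913) and 1.28 (SE 0.30, adjusted p = 0.0223), and the former held whichever sample was left out (1.47 to 1.59) while the latter was lost when any sample but HDB 10 mm replicate 1 was left out (adjusted p from 0.0681 to 0.0887). In the 15 mm wounds Tgm5 was 11.2, 18.0 and 30.2 CPM with acellular beads and 26.0, 14.3 and 22.1 CPM with HDB, with log2 fold changes of 0.49 (adjusted p = 0.22) and 0.56 (0.239).

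Tgm3, which acts in the hair follicle as well as the granular layer, was 15.4 to 21.8 CPM in normal skin and 283 CPM in acellular 15 mm replicate 1, with 6.95 to 30.7 CPM in the other 11 healed samples. Tgm1, the membrane-bound enzyme of the granular layer, was 86.9 CPM in that same sample, 16.7 to 21.1 CPM in normal skin and 4.85 to 24.2 CPM in the other 11. Neither was called in the acellular 15 mm group, where the log2 fold changes of 2.51 (SE 1.09, adjusted p = 0.0969) and 1.04 (SE 0.67, adjusted p = 0.254) became -0.89 and -0.24 without that sample. In the acellular 10 mm, HDB 10 mm and HDB 15 mm groups Tgm3 was at 0.03, -0.29 and -0.62 (SE 1.05, 1.05 and 1.06, adjusted p = 0.984, 0.876 and 0.749). Tgm1 was at -0.35, -0.69 and -0.47 there (SE 0.67, 0.68 and 0.67, adjusted p = 0.725, 0.508 and 0.697). Ivl, Tgm1, Tgm3, Crnn and the hair list were all at their highest in it.

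Casp14, the caspase of cornifying cells that processes filaggrin, was 15.9 to 23.3 CPM in normal skin and 14.6, 119.99 and 76.4 CPM in the HDB 10 mm group. The log2 fold change there was 1.85 (SE 0.55, adjusted p = 0.046), lost when any sample but HDB 10 mm replicate 1 was left out (1.23 without replicate 2). It was also lost with no filter (adjusted p = 0.052), under a replicate block (0.0795) and in a fit of the compared groups alone (0.0928). In the other healed samples it lay between 13.8 and 34.5 CPM. Asprv1, the other filaggrin-processing protease, was 202 to 230.3 CPM in normal skin, below that range in all samples of the acellular 10 mm, acellular 15 mm and HDB 15 mm groups, and 32.4, 179 and 333 CPM in the HDB 10 mm group. It was called in no group, with log2 fold changes of -1.22, -0.48, -0.25 and -0.82 in the acellular 10 mm, acellular 15 mm, HDB 10 mm and HDB 15 mm groups (SE 0.59 each, adjusted p = 0.15, 0.555, 0.804 and 0.391). Cdsn, whose product holds corneocytes together, was 66.0, 73.5 and 93.7 CPM in normal skin and 33.9 ± 5.07 CPM (SD, n = 3) in the HDB 10 mm group, with a log2 fold change of -1.20 (SE 0.38, adjusted p = 0.0563). All samples of the HDB 10 mm, acellular 15 mm and HDB 15 mm groups were below normal skin, and the first of the acellular 10 mm group, at 67.7 CPM, was not.

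HDB against acellular beads asks whether the stem cells changed the healed skin. With edgeR 0 of the 34 tested members were called at 10 mm and 0 of all genes (0% of the background), with 8 members and 543 of all genes at an unadjusted p under 0.05, and 0 members with DESeq2 (0.111% of all genes). At 15 mm 0 members were called where 2.93% of all genes were (0.579% higher and 2.35% lower with HDB), with 5 members and 3567 of all genes at an unadjusted p under 0.05. DESeq2 called 1 member there (Sprr1b, -4.16) and 14.1% of all genes. Over both sizes 0 members (0% of all genes) were called, with 7 members and 2428 of all genes at an unadjusted p under 0.05 and 2 members by DESeq2 (Rptn and Crnn; 2.76% of all genes). For the difference of the treatment effect between sizes the count was 0 (0% of all genes), with 2 members and 2063 of all genes at an unadjusted p under 0.05 and 1 member by DESeq2 (Sprr1b, -6.58; 5.65% of all genes). Leaving out acellular 15 mm replicate 3 gave 3 calls at 15 mm, all lower with HDB (Sprr1b, Tgm1 and Tgm3), with 14.9% of all genes called.

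The medians over the tested members were 0.68 at 10 mm and 0.42 at 15 mm on the log2 scale, against -0.01 and 0.00 over all genes. At 10 mm the median was 0.03 without HDB 10 mm replicate 3. It was 1.31 without HDB 10 mm replicate 1 and 1.23 without acellular 10 mm replicate 1 (39 members tested). At 15 mm it was 0.0021 without HDB 15 mm replicate 3, 0.07 without acellular 15 mm replicate 1 and 0.13 with the transcript length trend removed. Without acellular 15 mm replicate 3 it was 0.65. All 14 Lce1 genes had log2 fold changes above 0 at both sizes (0.06 to 2.00 at 10 mm and 0.38 to 1.07 at 15 mm), but none of them was called, none separated the groups at either size, and those of Lce1m fell below 0 when single samples were left out. As these genes vary together between samples, their common sign is not 14 separate observations. Samples of HDB and acellular beads overlapped for every tested member at 10 mm, where 11% of all genes did not overlap. At 15 mm they did not overlap for 2 members (20.3% of all genes), Hrnr, higher with HDB, and Sprr1b, lower with HDB.

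The smallest unadjusted p at 10 mm belonged to Rptn (3.92, SE 1.05, adjusted p = 1 after rounding) among higher members and to Crnn (-3.95, SE 1.88) among lower ones. With single samples left out these lay at 3.14 to 4.86 and at -4.53 to -1.59. At 15 mm they belonged to Lce1b (1.07, SE 0.55, adjusted p = 0.263) and Sprr1b (-4.13, SE 1.43, adjusted p = 0.118), and the latter was -1.43 without acellular 15 mm replicate 1. Over both sizes Rptn (2.38, SE 0.71) and Crnn (-4.0, SE 1.27) had an adjusted p of 0.261 each. Leaving out single samples gave 1.99 to 2.85 and -4.83 to -2.52 over both sizes. All 21 hair genes were also below 0 in that comparison (median -4.61), each with an unadjusted p under 0.05 and 0 called, and their part in the Crnn difference was not tested. For the difference between sizes the extremes were Sprr4 (2.48, SE 1.36) and Sprr1b (-6.51, SE 1.89, adjusted p = 0.165). Without single samples these were 0.65 to 3.16 and -7.13 to -3.81. Lor differed by 0.64 (SE 0.70) at 10 mm and 0.49 (SE 0.69) at 15 mm, so its difference between bead types was smaller than its standard error in both. Flg differed by 1.93 (SE 0.68) at 10 mm and 0.37 (SE 0.66) at 15 mm. Sprr1a differed by -1.29 (SE 0.76) and -0.61 (SE 0.75), Tgm5 by -0.23 (SE 0.29) and 0.07 (SE 0.29), Flg2 by 0.16 (SE 0.49) and 0.36 (SE 0.49), Asprv1 by 0.97 (SE 0.59) and -0.34 (SE 0.59), and Cdsn by -0.47 (SE 0.37) and -0.08 (SE 0.37). With single samples left out, Sprr1a lay at -1.69 to -0.26 at 10 mm and -1.10 to -0.24 at 15 mm. Asprv1 lay at 0.19 to 1.49 and Cdsn at -0.70 to -0.11 at 10 mm, and Lor at 0.02 to 1.31 at 15 mm.

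**Figure D5:**
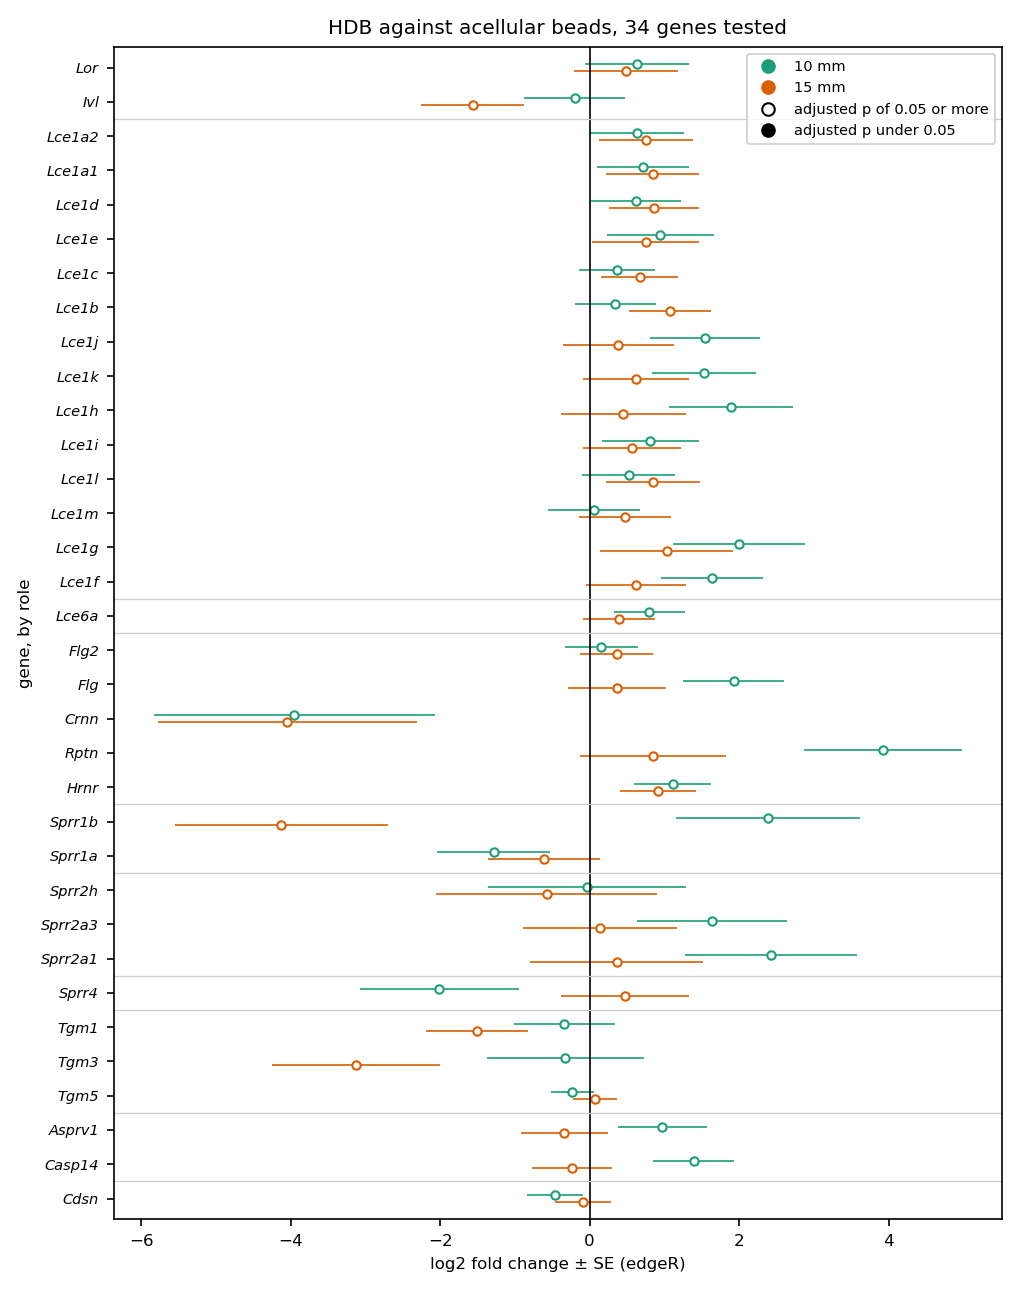
The x axis gives the log2 fold change of HDB over acellular beads with its standard error for the 34 tested genes, at 10 mm and at 15 mm, ordered by role. All points are open because no adjusted p was under 0.05. All 14 Lce1 genes lie right of 0 at both sizes (at most 2.00), Rptn lies at 3.92 at 10 mm and Sprr1b at -4.13 at 15 mm.

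At 10 mm the members were spread most widely within the HDB group. The 47 members summed to 504, 1957 and 2731 CPM in HDB 10 mm replicates 1, 2 and 3, while the normal samples summed to 1624 to 1919 CPM and the acellular 10 mm samples to 736 to 1441 CPM. The suprabasal list, which holds none of the members, was 3443, 6246 and 5140 CPM in the same 3 HDB samples, and the muscle list was 36677, 706 and 8405 CPM. Within that group replicate 1 was thus lowest in both sums and highest in muscle, and the part of this in the members' values was not tested. As a percent of the suprabasal sum, Flg was 1.08%, 5.85% and 8.72% in these HDB samples and 1.16% ± 0.148 (SD, n = 3) in normal skin.

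The other genes of the pathway, from lists of known function, were counted in the same fit. Beside these counts, all genes tested were higher and lower at 9.77% and 10.6% in the acellular 10 mm group, 17.6% and 12.6% in the acellular 15 mm group, 6.1% and 6.23% in the HDB 10 mm group and 2.67% and 2.51% in the HDB 15 mm group, and several lists lay near these shares. Of 22 regulators of keratinocyte differentiation tested, 9 were higher and 0 lower than normal skin in the acellular 10 mm group, 12 higher and 2 lower in the acellular 15 mm group, 3 higher and 1 lower in the HDB 10 mm group and 5 higher and 0 lower in the HDB 15 mm group. Ehf, Vdr and Tfap2a were higher in all 4 groups. Ehf, an ETS factor of epithelia, was 4.64, 6.90 and 4.02 CPM in normal skin and 19.8 to 70.4 CPM in healed skin (log2 fold changes from 2.41 to 3.10, adjusted p at most 0.01 after rounding). Klf4, which drives the barrier program, fell by 0.62 on the log2 scale (adjusted p = 0.0123) in the acellular 15 mm group and by 0.51 (adjusted p = 0.0474) in the HDB 10 mm group. Cebpa, the most abundant of the list, was not called in any group. Its log2 fold changes lay between -0.21 and -0.02.

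Of 6 wound keratinocyte genes, 2, 2, 1 and 2 were higher than normal skin in the acellular 10 mm, acellular 15 mm, HDB 10 mm and HDB 15 mm groups, all of them Krt16 or Krt17, and the other 4 genes were called in no group. Krt16, made by activated keratinocytes, was 2.55 to 5.34 CPM in normal skin and 16.4 to 353 CPM in healed skin and was higher in all 4 groups (log2 fold changes from 3.70 to 6.03). Krt17, the most abundant of the list, was higher in 3 groups and had an adjusted p of 0.152 in the HDB 10 mm group.

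Of 16 further envelope genes, 4 were higher and 1 lower in the acellular 10 mm group, 3 higher and 3 lower in the acellular 15 mm group, 2 higher and 1 lower in the HDB 10 mm group and 0 higher and 1 lower in the HDB 15 mm group. Dmkn, a secreted protein of the granular layer, was lower in 3 groups (-1.67, -0.97 and -1.15 in the acellular 15 mm, HDB 10 mm and HDB 15 mm groups). Fabp5, the most abundant, was higher in both 10 mm groups (1.24 and 1.29). Of 13 barrier lipid genes, 3 were higher and 1 lower in the acellular 10 mm group and 0 higher and 4 lower in the acellular 15 mm group, with 2 higher in the HDB 10 mm group and 1 lower in the HDB 15 mm group. Elovl4, the elongase of very long fatty acids and the most abundant of them, was higher in both 10 mm groups (1.14 and 1.24), the groups in which Tgm5 and the sebaceous list were high. Sdr9c7 was lower in 3 groups (-1.86, -1.65 and -1.94 in the acellular 10 mm, acellular 15 mm and HDB 15 mm groups).

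Of the 17 desquamation genes, which include kallikreins and peptidylarginine deiminases, 2 were higher in the acellular 10 mm group, 5 were higher and 2 lower in the acellular 15 mm group and 0 were called in the HDB groups. Ctsd, the most abundant, was 969 to 1196 CPM in normal skin and was not called in any group. Among the 11 suprabasal genes, 3 were higher and 2 lower in the acellular 15 mm group, where Dsp was higher (0.98, adjusted p = 0.0148) and Krt10, the keratin of the spinous layer, lower (-1.49, adjusted p = 0.0293). Dsp, a desmosome protein, was the most abundant of them. In this list 1 gene was higher in the acellular 10 mm group, 1 lower in the HDB 15 mm group and 0 called in the HDB 10 mm group. Of the 8 basal genes 3 were higher in the acellular 10 mm group, 1 in the acellular 15 mm group, 1 in the HDB 10 mm group and 0 in the HDB 15 mm group, and 0 were lower in any. Krt5, the most abundant of them, was at 1.31 (adjusted p = 0.0267) in the acellular 10 mm group. In HDB against acellular beads, 0 genes of these 6 lists and of the basal list were called at either size.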

How the data were processed

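RNA of 15 skin samples in 5 groups of 3 was sequenced after poly(A) selection. Per the labels' processing notes, the authors used HISAT2 2.0.4, Bowtie2 2.2.5, RSEM 1.2.12 and GRCm38.p6, and deposited RSEM expected counts per gene, which need not be whole. Strand was not stated. Each sample's column was taken by its title, and 0 further columns of per-sample values were left aside.

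Expected counts were rounded, filtered with filterByExpr, scaled by TMM and fitted with edgeR 4.0.16 (R 4.3.3), with 1 mean per group and quasi-likelihood tests adjusted by Benjamini-Hochberg over 15369 genes at a threshold of 0.05. The fit was tested on simulated data. Standard errors are the log2 fold change over the root of F, and log2 levels used a prior count of 2. Gene lengths (GENCODE vM21) were matched for 97.1% of genes. Confidence intervals of count ratios and the limit of 3 counts cover counting error only.

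Members of each role with the highest mean, together with Lor, Ivl, Flg and Tgm1, were chosen for statistics in the comparisons where they are described, followed by up to 3 called members with the largest change in each direction, or those of smallest p where none was called. Of the related and marker lists, counts and the most abundant gene are given, and other genes named from them, together with the members beyond this rule, were chosen after their values were seen. Members and lists were chosen with earlier results of these data known.

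Alternatives were DESeq2 1.42.0, RLE factors, no filter, a mean of at least 50 counts, only the groups compared, a replicate block, removal of a transcript length trend (spline of 4 degrees of freedom), block and trend together, and leaving out each sample. Scaling to the summed suprabasal list, and count ratios with single samples left out, were chosen after seeing the data. Replicate numbers paired samples in acellular 15 mm against HDB 15 mm only (correlations of deviations 0.397, 0.167 and 0.183), a link drawn from the data and not from the labels.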

Additional observations from a re-analysis of the deposited data

How the results depend on the processing

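At 10 mm, 0 members were called in HDB against acellular beads under every alternative run. Counts of members called that moved by over 1.5 times, or from 0, were these, with the share of all genes called in parentheses. The other alternatives gave 2 to 3 in the acellular 10 mm group (6.08% to 23.1%) and 4 to 5 in the acellular 15 mm group (13.6% to 34%). In the HDB 10 mm group they gave 5 to 7 (4.58% to 14.8%), the 7 under scaling to the suprabasal list (4.58%). DESeq2 called 1 at 15 mm (14.1% of all genes), 2 over both sizes (2.76%), 1 for the difference between sizes (5.65%), and against normal skin 7 (acellular 10 mm; 32.9%), 8 (acellular 15 mm; 40.2%), 13 (HDB 10 mm; 24.8%) and 4 (HDB 15 mm; 18.6%). A fit of only the groups compared gave 7, 1, 4 and 7 against normal skin in the acellular 10 mm, acellular 15 mm, HDB 10 mm and HDB 15 mm groups, where it called 42%, 6.57%, 20.2% and 22.9% of all genes. The 4 in the HDB 10 mm group was a move of 1.5 times and not over it. In the HDB 15 mm group a mean of at least 50 counts gave 1 (7.08% of all genes), the length trend 1 (5.77%), and scaling to the suprabasal list, chosen after seeing the data, 2 (Sprr1a and Tgm5; 19.1%). With the replicate block 3 members were called in the HDB 10 mm group (7.72% of all genes), as with block and length trend together (3; 6.6%), and Sprr2a1, Sprr2a3 and Casp14 were those lost. The block changed no call of HDB against acellular beads at 15 mm, the pair of groups whose numbers paired the samples, and elsewhere samples share only a number. Leaving out single samples gave 0 to 3 calls in HDB against acellular beads at 15 mm (0% to 14.9%), and against normal skin 1 to 2 (acellular 10 mm; 5.14% to 11.9%), 2 to 7 (acellular 15 mm; 14.8% to 37.3%), 0 to 18 (HDB 10 mm; 0.501% to 17.5%) and 0 to 1 (HDB 15 mm; 0.218% to 8.61%). In these fits 39 members passed the filter, or 34 without HDB 10 mm replicate 2 or 3. The acellular 15 mm count was 4, 6 and 7 without acellular 15 mm replicates 1, 2 and 3 (23%, 29% and 37.3%) and 2 without each normal sample (16.9%, 17.8% and 14.8%).

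Of 94 pairs of a named gene and a comparison, 32 changed sign under some alternative, and 0 of the 13 called pairs did. For HDB against acellular beads at 10 mm the block gave -0.15 for Lce1m and -0.0073 for Flg2, the length trend -0.059 for Flg2, and both together -0.015 for Lce1m, -0.22 for Flg2 and 0.0014 for Ivl. At 15 mm scaling to the suprabasal list gave 0.13 for Cdsn and the length trend -0.032 for Lce6a. Against normal skin Tgm3 was -0.10 with the block and -0.021 with both in the acellular 10 mm group, Lce6a was -0.13 with the length trend and -0.18 with both in the HDB 15 mm group, and scaling to the suprabasal list gave 0.012 for Lce6a and 0.14 for Flg in the acellular 15 mm group and 0.0501 for Tgm3, 0.017 for Ivl and 0.011 for Tgm1 in the HDB 15 mm group. Under that scaling the median of all genes against normal skin was 0.14 to 0.58, from 0.02 to 0.06 without it, and Lor, Flg2 and Lce1m stayed below 0 and Sprr1a above 0 in all 4 groups under it.

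Leaving out single samples gave these ranges where the sign changed. For HDB against acellular beads at 10 mm they were -0.52 to 0.47 for Lce1m, -0.20 to 1.11 for Lor, -0.31 to 0.45 for Flg2, -0.86 to 0.29 for Tgm3, -0.51 to 0.22 for Ivl and -0.69 to 0.0598 for Tgm1. At 15 mm they were -0.30 to 0.30 for Cdsn, -0.015 to 1.27 for Lce1m, -0.065 to 0.83 for Flg2, -0.20 to 0.92 for Sprr2a1, -3.72 to 0.27 for Tgm3, -1.99 to 0.048 for Ivl and -0.43 to 0.70 for Flg. Against normal skin in the acellular 10 mm group they were -0.38 to 2.15 for Sprr4, -0.58 to 0.36 for Tgm3, -0.027 to 0.42 for Ivl and -0.02 to 0.24 for Flg. In the acellular 15 mm group they were -0.89 to 3.06 for Tgm3, -0.56 to 1.47 for Ivl and -0.24 to 1.51 for Tgm1. In the HDB 10 mm group they were -1.02 to 0.26 for Asprv1, -0.96 to 0.15 for Sprr4, -0.83 to 0.032 for Tgm3 and -0.23 to 0.49 for Ivl. In the HDB 15 mm group they were -0.033 to 0.34 for Lce6a and -0.55 to 0.58 for Flg. The cause of these moves was not tested. Genes near 0 counts in normal skin, such as Crnn, Sprr1b and Sprr2h, are limited by depth, and their fitted fold changes are no bounds.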
